A study of Mus musculus with 14 samples.

Results

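The comparison described here set the 4 arrays of 3T3-L1 cells taken at 36 and 48 h of differentiation against the 4 arrays taken at 12 and 24 h, which is 8 of the 14 arrays of the study. Arrays were put in a window by the hour in their labels. 3T3-L1 is a mouse fibroblast line, an embryonic preadipocyte model that turns into fat cells when confluent cultures receive a hormone mixture. All 8 arrays came from cells kept in that mixture, which held 1 µg per ml insulin, 0.25 µM dexamethasone and 0.5 mM isobutylmethylxanthine for the first 48 h. In each window 2 arrays came from cells stably transduced with an empty retrovirus and 2 from cells transduced with a retrovirus for SETD5 with a V5 tag, driven by the weak promoter of the viral long terminal repeat. Each window thus held 1 array per virus and hour, and hours and viruses stood in for replicates. Nothing in the labels says whether the arrays came from separate cultures, so the p-values measure only the spread between these arrays, which includes any change between the hours of 1 window. The 12 and 24 h arrays are called the earlier arrays and the 36 and 48 h arrays the later arrays.

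Confluent 3T3-L1 cells that receive the mixture first re-enter the cell cycle, a phase known as mitotic clonal expansion, and then leave it and take on the fat cell program. Dexamethasone acts through the glucocorticoid receptor, isobutylmethylxanthine blocks the phosphodiesterases that break down cyclic AMP, and insulin acts through the insulin and IGF1 receptors. The factors C/EBPβ and C/EBPδ are made early, and PPARγ and C/EBPα follow and switch on the genes of lipid storage. The comparison addresses which genes changed between the early phase and the hours at which the late factors are induced.

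Probe sets that name a single gene covered 18193 genes, and 8682 of these were tested. Intensities reached 50 in 88.4% to 91.4% of them on each of the 8 arrays, whose medians lay between 188 and 196. The trimmed mean was 100 on every array. All 10 defining genes of the fibroblast line reached 50 in both windows, with a summed intensity of 29838 to 34170 on the earlier and 35658 to 39017 on the later arrays. All 8 macrophage, all 8 endothelial and all 8 skeletal muscle markers and all 6 bone and cartilage markers with a probe set stayed under 50 on every one of the 8 arrays. Values of a gene on the 8 arrays are given for each line in the order 12, 24, 36 and 48 h. Setd5 itself read 249, 298, 298 and 298 in the empty virus line and 239, 254, 318 and 292 in the SETD5 line. These values overlapped between viruses as between windows (log2 difference between windows with its limma standard error 0.20 ± 0.10, adjusted p = 0.156), and the position of its probes relative to the viral insert was not given, so they do not check the virus label. Its other probe sets had differences of 0.32 and -0.03 and were not called.

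Between the windows 1173 genes rose, which was 13.5% of those tested, and 773 fell, which was 8.9%. These shares are the background against which the counts of list members below are to be read. A gene was called when its limma p, adjusted by Benjamini-Hochberg over all tested genes, was under 0.05. All 4 later arrays lay above all 4 earlier ones in 1401 genes (16.1%) and below them in 966 (11.1%). More than 2-fold changes were found in 201 of the risen genes (17.1%) and in 188 of the fallen ones (24.3%). The median log2 difference of all tested genes was 0.04. Folds here are taken on intensities with an offset of 16 added, which understates the change of dim genes. Leaving out 1 array moved a count by over 1.5 times in 4 cases, to 603 risen and 399 fallen without the SETD5 virus array of 48 h, 636 and 424 without the empty virus array of 36 h, 725 and 469 without the SETD5 virus array of 36 h and 765 risen without the SETD5 virus array of 12 h. In RNA from whole cultures, fewer cells of a kind and less RNA per cell cannot be told apart.

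In most called genes the largest step was that from 24 to 36 h, which the comparison favours. Averaged over both viruses, that step was the largest of the 3 steps between 12 and 48 h in 934 of the risen genes (79.6%) and in 669 of the fallen ones (86.5%). The step from 12 to 24 h was the largest in 193 risen genes (16.5%) and 86 fallen ones (11.1%), and the step from 36 to 48 h in 46 (3.92%) and 18 (2.33%). The comparison itself favours genes that move between the windows, so these shares describe the calls and were not tested. Over all tested genes, 329 (3.79%) moved more than 2-fold either way from 12 to 24 h, 400 (4.61%) from 24 to 36 h and 40 (0.461%) from 36 to 48 h.

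**Figure D1:**
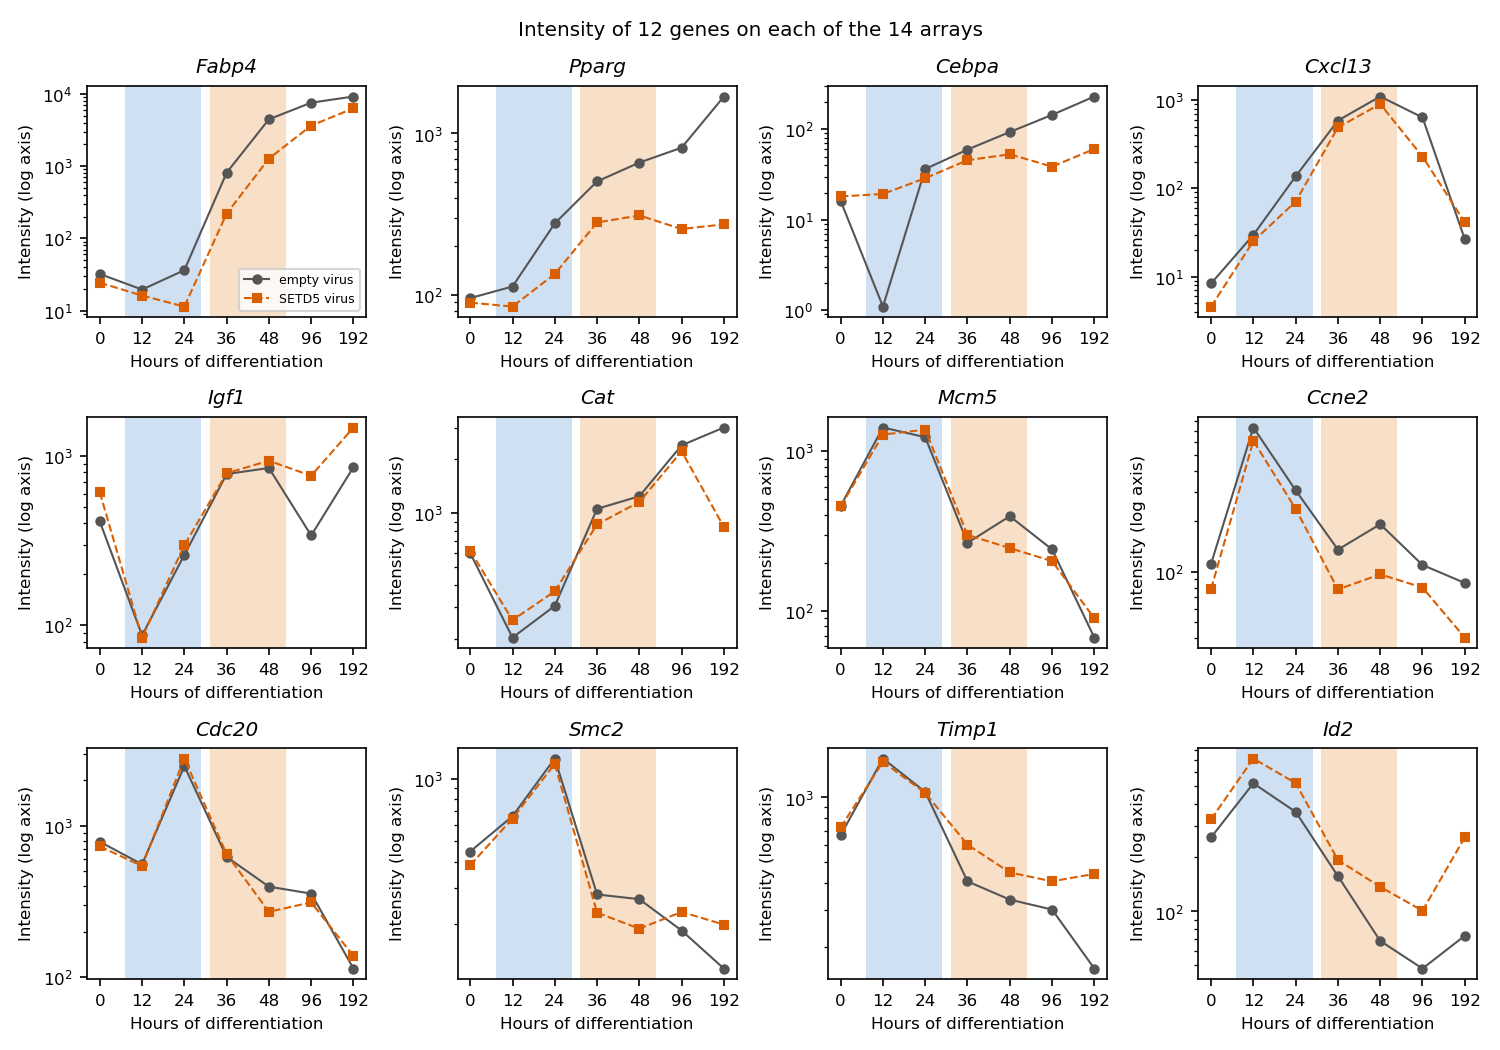
Intensity on a log axis (y) of 12 genes at the 7 hours of differentiation (x, spaced evenly). Each point is 1 array, a grey circle for the empty virus and an orange square for the SETD5 virus. The earlier window is shaded blue and the later window orange. Fabp4 goes from between 11.4 and 36.3 on the earlier arrays to between 220.0 and 4436 on the later ones, whereas Mcm5 goes from between 1227 and 1410.5 to between 248 and 392.1.

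The genes of DNA replication fell as a group. The list held the origin licensing proteins, the replicative helicase, the polymerases with their clamp loader, and the enzymes that supply nucleotides. All 44 tested members fell, against 8.9% of all tested genes. In every case their 4 later values lay below the 4 earlier ones, against 11.1% of all tested genes. The median log2 difference was -1.36, with a range from -2.11 to -0.41, against a median of 0.04 over all tested genes. The list median moved by 0.03 from 12 to 24 h, by -1.33 from 24 to 36 h and by 0.14 from 36 to 48 h. Mcm5, a subunit of the helicase, read 1410.5, 1227, 267 and 392.1 in the empty virus line and 1274, 1367, 299.7 and 248 in the SETD5 line. All later arrays lay far under all earlier ones, a 4.26-fold fall (-2.09 ± 0.14, adjusted p = 0.000242). Uhrf1, which carries DNA methylation over to the new strand, read 573, 577, 92.2 and 186 in the empty virus line and 428, 525, 103 and 77.7 in the SETD5 line, and its later values were again all below the earlier ones (4.31-fold lower, -2.11 ± 0.19, adjusted p = 0.000683), while another probe set fell by 1.08 (adjusted p = 0.0118). Fen1, the nuclease that trims Okazaki fragments, read 704, 618, 146 and 222 in the empty virus line and 687, 542, 109 and 164 in the SETD5 line. Its fall was 3.79-fold (-1.92 ± 0.17, adjusted p = 0.000627), with a gap between the windows larger than the spread within either. Cdc6, which loads the helicase at origins, read 246, 101, 29.1 and 61.5 in the empty virus line and 288, 109, 27.6 and 30.5 in the SETD5 line. It was highest at 12 h in both lines and low at 36 h (3.58-fold lower, -1.84 ± 0.35, adjusted p = 0.00939). Outside the list, the largest falls named by rule included the histone chaperone Asf1b (-1.90 ± 0.17, adjusted p = 0.000578) and the cohesin acetyltransferase Esco2 (-1.90 ± 0.34, adjusted p = 0.00754). Lrr1, which helps to unload the replicative helicase, fell by 1.93 (adjusted p = 0.000429), and by 1.11 on another probe set (adjusted p = 0.00137).

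Promoter letters played no part in the calls, and the starts of 3 fallen genes that hold a match are shown for a motif that was found more often in promoters of fallen genes than in those of tested genes. RefSeq promoters of the build GRCm38.p6 were taken from 250 bases before to 50 bases after the start of the transcript, and 36 of the 44 tested replication genes matched, with 43 promoters. An E2F motif, spelled TTTCCCGC, TTTGGCGC or TTTCGCGC on either strand, was found in 32.6% of these promoters. The motif stood in 10.2% of the 783 promoters of fallen genes, in 2.25% of the 1288 promoters of risen genes, in 3.73% of the 9112 promoters of tested genes and in 1.84% of the 32851 promoters in the table. The spellings can overlap one another, and a match is a description of letters and not of a bound site. Below, capitals mark the E2F motif in the promoters of Mcm5 (chr8:75109259-75109558, + strand), Uhrf1 (chr17:56304063-56304362, + strand) and Cdc6 (chr11:98907901-98908200, + strand), which were chosen for a large fall together with a match.
Mcm5: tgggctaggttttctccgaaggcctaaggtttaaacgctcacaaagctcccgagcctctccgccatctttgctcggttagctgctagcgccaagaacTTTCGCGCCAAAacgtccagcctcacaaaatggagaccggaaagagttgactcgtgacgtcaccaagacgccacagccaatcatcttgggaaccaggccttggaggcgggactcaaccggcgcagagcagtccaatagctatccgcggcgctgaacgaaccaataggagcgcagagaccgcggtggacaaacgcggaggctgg
Uhrf1: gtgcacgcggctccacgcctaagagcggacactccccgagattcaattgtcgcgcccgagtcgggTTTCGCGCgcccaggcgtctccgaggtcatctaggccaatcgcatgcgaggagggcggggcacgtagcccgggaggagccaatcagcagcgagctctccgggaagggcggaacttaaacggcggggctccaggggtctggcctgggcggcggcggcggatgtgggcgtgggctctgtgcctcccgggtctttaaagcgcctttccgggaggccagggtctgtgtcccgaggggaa
Cdc6: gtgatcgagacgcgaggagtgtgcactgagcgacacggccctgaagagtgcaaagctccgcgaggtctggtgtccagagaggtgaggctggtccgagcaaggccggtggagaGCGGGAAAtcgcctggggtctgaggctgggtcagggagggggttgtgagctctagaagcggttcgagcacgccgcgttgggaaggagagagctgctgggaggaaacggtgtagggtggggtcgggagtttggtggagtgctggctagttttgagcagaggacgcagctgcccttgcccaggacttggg
The first base of the match lay 153 and 149 bases before the start in Mcm5, where 2 matches overlap, 185 bases before it in Uhrf1 and 138 bases before it in Cdc6.

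Genes of the mitotic spindle and cytokinesis followed another course within the earlier window. Of 57 tested members 23 fell (40.4%, all tested genes 8.9%) and none rose. All 57 had a negative difference, with a median of -1.46. The list median moved by 1.89 from 12 to 24 h and by -2.15 from 24 to 36 h, so the members peaked at 24 h and the 2 hours of the earlier window differed widely. With both 12 h arrays left out, all 57 members fell, and with both 24 h arrays left out 18 did. With both 36 h arrays left out 1 fell, and with both 48 h arrays left out none did. Leaving out single arrays gave 36 and 32 fallen members without the 12 h array of the empty and the SETD5 virus, 11 and 12 without those of 24 h, 7 and 9 without those of 36 h and 8 and 4 without those of 48 h. Smc2, a condensin subunit that compacts chromosomes, read 661, 1253, 278 and 264 in the empty virus line and 644, 1179.6, 227 and 190.2 in the SETD5 line. Every earlier array was above every later one and the 24 h arrays were the highest in both lines (3.58-fold lower, -1.84 ± 0.24, adjusted p = 0.00213). Mad2l1, a spindle checkpoint protein, read 1027, 2258, 449.5 and 488 in the empty virus line and 921, 1923, 428 and 257 in the SETD5 line, again with its peak at 24 h (3.51-fold lower, -1.81 ± 0.31, adjusted p = 0.00596). Kif20b, a kinesin of cytokinesis, had a log2 difference of -1.98 ± 0.44 (adjusted p = 0.0167), and its call was lost without the empty virus 48 h or SETD5 virus 48 h array (adjusted p = 0.055 and 0.0593). Cep55, which acts at the midbody, had -1.87 ± 0.52 (adjusted p = 0.0369). The Cep55 call was lost without any 1 array other than the empty virus 12 h and SETD5 virus 12 h ones (adjusted p between 0.063 and 0.112) and with no intensity filter (adjusted p = 0.0646). Among the largest falls outside the list, the kinetochore gene Cenpi had -2.05 ± 0.36 (adjusted p = 0.00687) and Trip13, an ATPase that remodels the checkpoint protein, -1.92 ± 0.23 (adjusted p = 0.00155). Both were called in all 8 fits that left out 1 array.

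Cdc20, the activator of the anaphase-promoting complex and a gene the study followed, was not called. It read 557, 2485, 624 and 397 in the empty virus line and 543, 2786, 650.2 and 271 in the SETD5 line. The 24 h arrays were the highest by far, and the 12 h arrays lay within the range of the later ones, so the windows overlapped (log2 difference -1.37 ± 0.61, adjusted p = 0.139). Of 20 tested genes in the list of the complex, its activators and inhibitors, 3 fell (15.0%, all tested genes 8.9%) and none rose. The list also holds the ubiquitin ligase gene Rnf213. Fbxo5, which inhibits the complex, read 277, 452, 112 and 110.0 in the empty virus line and 255, 379, 66.9 and 81.3 in the SETD5 line, and all later values were lower than all earlier ones (3.26-fold, -1.70 ± 0.18, adjusted p = 0.00114). Ube2s, its ubiquitin-conjugating enzyme, had -0.75 ± 0.18 (adjusted p = 0.0208), and its call was lost without the empty virus 36 h, SETD5 virus 36 h or SETD5 virus 48 h array (adjusted p = 0.0711, 0.0539 and 0.0657). Anapc15, a small subunit, had -0.81 ± 0.25 (adjusted p = 0.0488). The Anapc15 call was lost without any 1 array other than the empty virus 12 h and SETD5 virus 12 h ones (adjusted p between 0.0744 and 0.138) and with an offset of 4, an offset of 64 or no intensity filter (adjusted p up to 0.082). The subunits Anapc2 (0.04 ± 0.10, adjusted p = 0.832) and Anapc11 (-0.41 ± 0.19, adjusted p = 0.154) were not called. With both 12 h arrays left out 9 members fell, and with both 24 h arrays left out 2 fell and 2 rose.

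Promoters of the mitotic genes carried another motif more often than those of tested genes. For 49 of the 57 members, with 53 promoters, 73.6% held the CHR, spelled TTTGAA or TTTAAA, and 71.7% the CCAAT box, spelled CCAAT. Over the promoters of tested genes the shares were 19.2% and 38.1%, over those of fallen genes 25.2% and 45.8%, over those of risen genes 18.1% and 35.9%, and over all promoters 27.6% and 37.4%. In the replication genes they were 27.9% and 55.8%. Both motifs are short and common, and no test was made. Capitals mark the CCAAT box and the CHR, on either strand, in the promoters of Cdc20 (chr4:118437294-118437593, - strand) and Smc2 (chr4:52438971-52439270, + strand), the first a gene the study followed and the second a fall called in all 8 fits that left out 1 array.
Cdc20: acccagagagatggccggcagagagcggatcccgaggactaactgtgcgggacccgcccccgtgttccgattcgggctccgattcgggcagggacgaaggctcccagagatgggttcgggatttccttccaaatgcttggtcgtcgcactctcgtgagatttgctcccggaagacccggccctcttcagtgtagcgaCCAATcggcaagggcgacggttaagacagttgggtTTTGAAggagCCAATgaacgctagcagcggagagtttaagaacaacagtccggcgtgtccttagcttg
Smc2: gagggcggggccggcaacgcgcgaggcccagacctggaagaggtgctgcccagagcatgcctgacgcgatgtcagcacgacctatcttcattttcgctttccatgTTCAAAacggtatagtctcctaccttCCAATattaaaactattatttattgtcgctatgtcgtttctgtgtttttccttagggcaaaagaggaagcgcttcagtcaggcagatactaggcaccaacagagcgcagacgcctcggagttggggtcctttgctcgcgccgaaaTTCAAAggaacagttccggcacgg
In Cdc20 the CHR began 18 bases before the start, between CCAAT boxes that began 53 and 8 bases before it. In Smc2 the CCAAT box began 119 bases before the start, with CHR letters 145 bases before and 26 bases after it.

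Regulators of the entry into S phase fell in part. Of 24 tested cyclins, E2F factors, pocket proteins and CDK inhibitors, 6 fell and 1 rose, with a median of -0.43. The member that rose was Cdkn2a, which encodes CDK and MDM2 inhibitors (0.39 ± 0.10, adjusted p = 0.0295), a call lost without any 1 array other than the empty virus 24 h and empty virus 48 h ones (adjusted p between 0.068 and 0.0898) and with no virus block (adjusted p = 0.0686). Ccne2, the S phase cyclin E2, read 732, 307, 136 and 192 in the empty virus line and 609, 238, 78.2 and 96.3 in the SETD5 line. It was highest at 12 h in both lines, and the later arrays were all lower (3.27-fold, -1.71 ± 0.34, adjusted p = 0.0111). E2f7 and E2f8 encode repressors among the E2F factors. E2f7 read 109, 96.4, 26.7 and 18.7 in the empty virus line and 104, 104.6, 25.6 and 19.1 in the SETD5 line, with little difference between lines or within windows (3.11-fold lower, -1.64 ± 0.11, adjusted p = 0.000242). E2f8 fell 3.1-fold (-1.63 ± 0.13, adjusted p = 0.000344), and Rbl1, the pocket protein p107, 2.54-fold (-1.35 ± 0.23, adjusted p = 0.00564). Of 17 tested p53 targets 4 rose (23.5%, all tested genes 13.5%) and 1 fell (5.88%, all tested genes 8.9%). Sesn1, a stress-induced inhibitor of mTORC1, rose 2.09-fold (1.07 ± 0.20, adjusted p = 0.0082), Trp53inp1 had 0.69 ± 0.12 (adjusted p = 0.00735) and the growth arrest gene Gadd45a 0.79 ± 0.13 (adjusted p = 0.00482). The receptor gene Eda2r had 0.57 ± 0.15 (adjusted p = 0.0308). The Eda2r call was lost without any 1 array other than the empty virus 24 h, SETD5 virus 24 h and SETD5 virus 36 h ones (adjusted p between 0.0748 and 0.0954) and with no intensity filter (adjusted p = 0.0505). Phlda3, an inhibitor of AKT, had -0.67 ± 0.18 (adjusted p = 0.031). The Phlda3 call was lost without any 1 array other than the empty virus 24 h and SETD5 virus 24 h ones (adjusted p between 0.051 and 0.0869) and with no intensity filter (adjusted p = 0.0518).

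**Figure D2:**
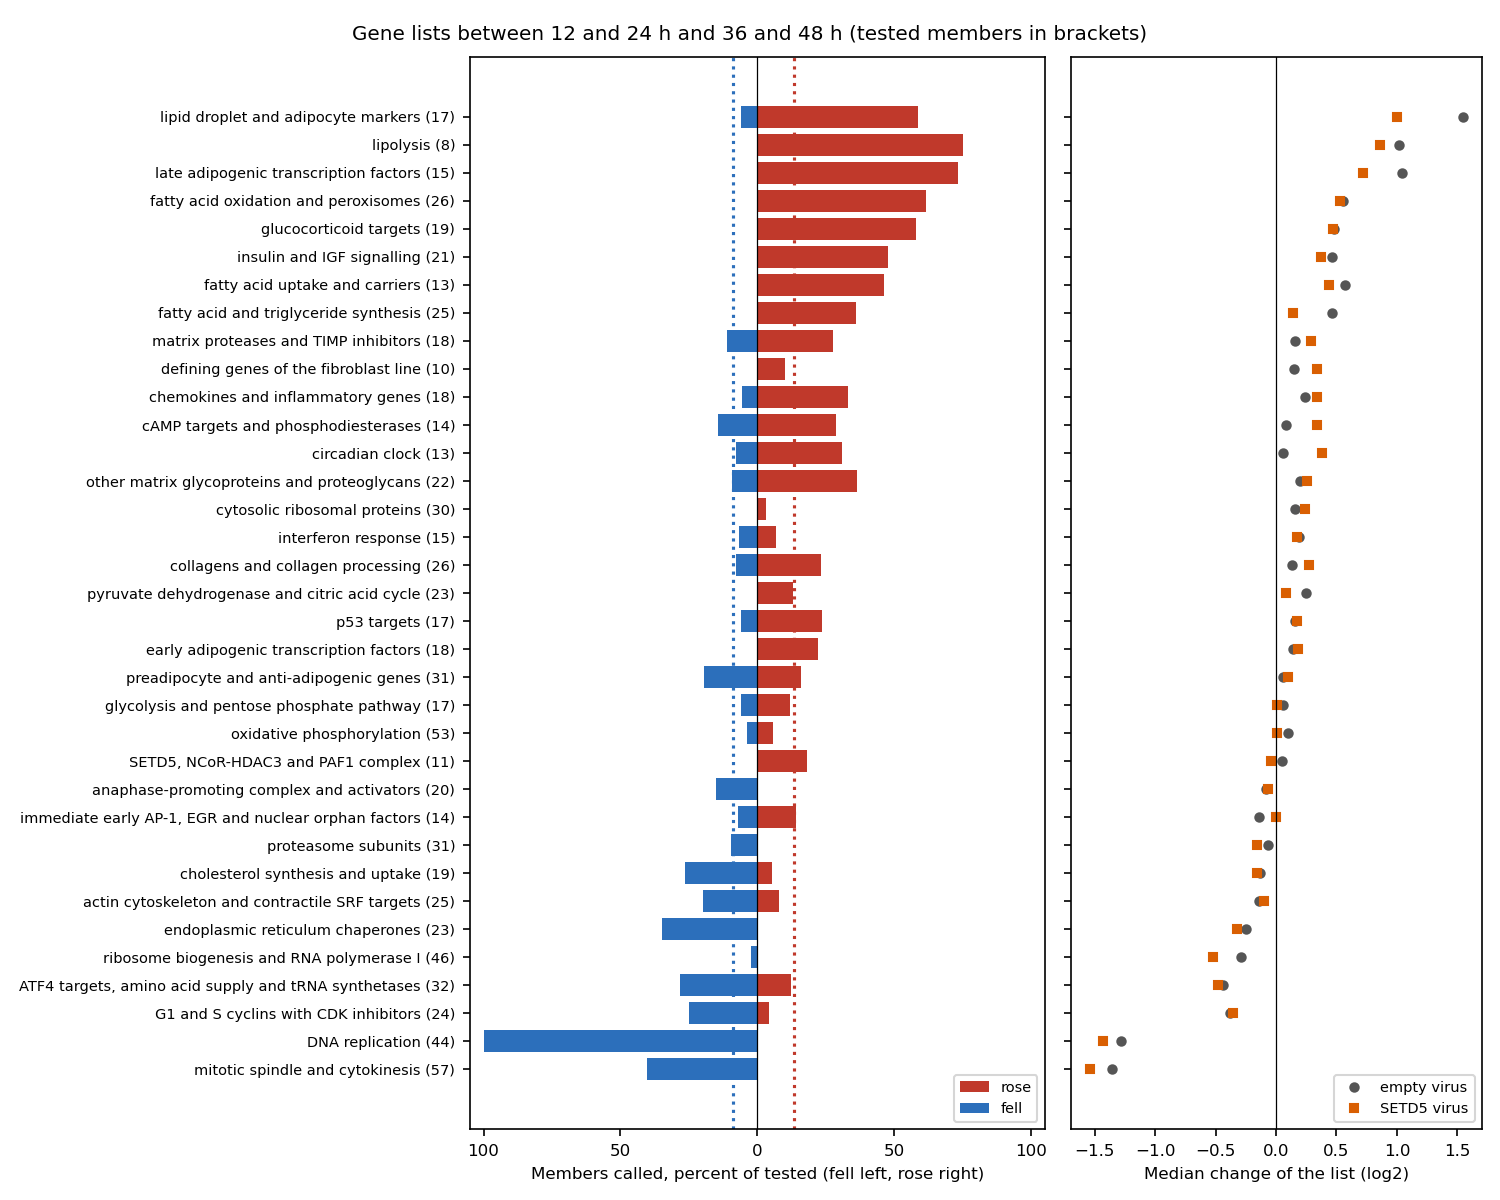
Left, percent of tested members (x) of 35 gene lists (y, tested members in brackets) that fell, drawn to the left in blue, or rose, drawn to the right in red, with dotted lines at the shares over all tested genes. Right, median change of each list from 12 and 24 h to 36 and 48 h (x, log2) in the empty virus line (grey circles) and the SETD5 line (orange squares). DNA replication stands at 100% fallen, and the median of the mitotic list is -1.36 for the empty virus line and -1.54 for the SETD5 line.

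Genes of ribosome biogenesis, of amino acid supply and of the chaperones of the endoplasmic reticulum had the highest list median of the 4 hours at 12 h. Of 46 tested genes of ribosome biogenesis 1 fell (2.17%, all tested genes 8.9%) and 45 had a negative difference, with a median of -0.40. Their list median moved by 1.02 from 0 to 12 h and by -0.77 from 12 to 24 h, and with both 24 h arrays left out 36 of the 46 fell. Without 1 array 1 to 3 fell, except for 14 without the empty virus array of 24 h. Taf1d, a subunit of the factor that starts RNA polymerase I, read 395, 289, 150.4 and 126 in the empty virus line and 390.5, 269.6, 143 and 172 in the SETD5 line. It was the only member called with all arrays, and all later values were lower (2.13-fold, -1.09 ± 0.16, adjusted p = 0.00314). Of its other probe sets 2 also fell and 3 had a negative difference that was not called (-0.27, -0.41 and -0.37). Of 30 cytosolic ribosomal protein genes 29 had a positive difference with a median of 0.20, and 1 rose (3.33%, all tested genes 13.5%). It was Rps6, a protein of the small subunit (0.61 ± 0.12, adjusted p = 0.0124). With an intensity trend and robust variances 18 of the 30 rose. In the ATF4 list, which holds genes of amino acid supply and tRNA charging, 9 of 32 tested members fell (28.1%) and 4 rose (12.5%). The shares over all tested genes were 8.9% and 13.5%. The fallen count was 14 without the empty virus array of 24 h, 5 without either array of 36 h, the SETD5 virus array of 12 h or that of 48 h, and 7 to 10 without any other array. Shmt2, the mitochondrial enzyme of serine and glycine exchange, read 239.6, 157, 66.1 and 87.5 in the empty virus line and 213, 159.6, 63.2 and 64 in the SETD5 line, and the later arrays were all lower (2.4-fold, -1.26 ± 0.15, adjusted p = 0.00175). Phgdh, the first enzyme of serine synthesis, fell 2.27-fold (-1.18 ± 0.22, adjusted p = 0.00905). The members that rose were Cth, which makes cysteine (0.87 ± 0.10, adjusted p = 0.00167), Ddit3, the stress factor CHOP (0.59 ± 0.12, adjusted p = 0.011, with 0.22 on another probe set that was not called), Ddit4, which restrains mTORC1, and the lipoprotein receptor gene Vldlr, the last of which are given in full with the hormone targets and fatty acid uptake.

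Among 23 tested chaperones of the endoplasmic reticulum, 8 fell (34.8%, all tested genes 8.9%) and none rose. With both 24 h arrays left out 13 fell. Without 1 array 6 or 7 fell for the 24 h arrays and the empty virus array of 48 h, and 3 for each of the others. Dnajb11, a partner of the chaperone BiP, had -0.82 ± 0.16 (adjusted p = 0.00881) and was called in all 8 fits that left out 1 array. Sdf2l1, of the same chaperone complex, had -1.03 ± 0.27 (adjusted p = 0.0309). The Sdf2l1 call was lost without any 1 array other than the empty virus 24 h and SETD5 virus 24 h ones (adjusted p between 0.055 and 0.0938) and with no intensity filter (adjusted p = 0.0534). Manf, a secreted stress protein, had -0.75 ± 0.22 (adjusted p = 0.0445). The Manf call was lost without any 1 array other than the empty virus 24 h and SETD5 virus 24 h ones (adjusted p between 0.058 and 0.13) and with no intensity filter (adjusted p = 0.0742). Creld2, a disulfide isomerase, had -0.70 ± 0.20 (adjusted p = 0.0365). The Creld2 call was lost without any 1 array other than the empty virus 24 h, SETD5 virus 24 h and empty virus 48 h ones (adjusted p between 0.0822 and 0.109) and with no intensity filter (adjusted p = 0.061). Of 31 proteasome subunits 3 fell (9.68%, all tested genes 8.9%), each by less than 0.5 on the log2 scale. The ATPase subunit gene Psmc1 had -0.38 ± 0.09 (adjusted p = 0.0199), and its call was lost without the empty virus 36 h, SETD5 virus 12 h or SETD5 virus 48 h array (adjusted p = 0.0507, 0.05 and 0.0698). Psmd2 had -0.42 ± 0.11 (adjusted p = 0.0323). The Psmd2 call was lost without any 1 array other than the empty virus 48 h one (adjusted p between 0.0503 and 0.0924) and with no intensity filter (adjusted p = 0.0501). Psmd13 had -0.37 ± 0.10 (adjusted p = 0.0368). The Psmd13 call was lost without any 1 array other than the empty virus 24 h and empty virus 48 h ones (adjusted p between 0.0639 and 0.11) and with no intensity filter (adjusted p = 0.055).

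Most of the late transcription factors of fat cell formation rose. Of 15 tested members 11 rose (73.3%, all tested genes 13.5%) and none fell. All 15 had a positive difference, and the median was 0.90. Pparg, which encodes the receptor at the centre of the program, read 113, 278, 505 and 661 in the empty virus line and 84.8, 135, 281 and 311 in the SETD5 line. In each line the values climbed from 12 to 48 h, and the lowest later value, 281 with the SETD5 virus at 36 h, was just above the highest earlier one, 278 with the empty virus at 24 h (2.78-fold, 1.47 ± 0.26, adjusted p = 0.00649). Cebpa, its partner factor, read 1.1, 36.4, 59.7 and 93.3 in the empty virus line and 19.3, 28.8, 45.6 and 53 in the SETD5 line. The windows did not overlap but 5 of the 8 values lay under 50 (2.23-fold, 1.16 ± 0.35, adjusted p = 0.0469). The Cebpa call was lost without any 1 array other than the empty virus 12 h, empty virus 24 h and SETD5 virus 24 h ones (adjusted p between 0.0757 and 0.125) and with quantile normalization, an offset of 4 or no intensity filter (adjusted p up to 0.0855). Stat5a, a factor activated by cytokine and growth hormone receptors, read 41.7, 74.2, 238 and 306 in the empty virus line and 38.2, 63.1, 148 and 167 in the SETD5 line, with a wide gap between the windows (3.24-fold, 1.70 ± 0.21, adjusted p = 0.00171). Lpin1, a phosphatidate phosphatase that also acts as a coactivator, rose 2.51-fold (1.33 ± 0.20, adjusted p = 0.00356), and Zbtb16, a zinc finger factor induced by glucocorticoids, 2.37-fold (1.24 ± 0.24, adjusted p = 0.00897). Ppargc1b, a coactivator of mitochondrial genes, had 1.38 ± 0.36 (adjusted p = 0.0276), and its call was lost without any 1 array other than the SETD5 virus 12 h and SETD5 virus 36 h ones (adjusted p between 0.0538 and 0.0873). With both 48 h arrays left out 3 members of the list rose, and with both 36 h arrays left out 5 did. Without 1 array 7 to 10 rose, with 7 for the empty virus arrays of 36 and 48 h and the SETD5 virus array of 48 h.

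Of 18 tested early factors 4 rose (22.2%, all tested genes 13.5%) and none fell. Cebpb, a leading early factor, read 3329, 3381, 4083 and 3382 in the empty virus line and 3229, 3256, 3302 and 3353 in the SETD5 line. These values overlapped and the difference was not called (0.09 ± 0.09, adjusted p = 0.503), with the level at 0 h at 1420 and 1260. Cebpd, the other early C/EBP gene, read 460.3, 541, 959.5 and 940.2 in the empty virus line and 654, 772, 1108 and 1102 in the SETD5 line. It rose 1.7-fold (0.77 ± 0.11, adjusted p = 0.00283) from a level that was already above that at 0 h, 213 and 243. Egr2, also known as Krox20, rose 2.05-fold (1.03 ± 0.10, adjusted p = 0.000887), from intensities of 19.3 to 26.8 to intensities of 55.8 to 68.7, which lay below those of 0 h, 281 and 272. Zfp423, a preadipocyte commitment factor, had 0.58 ± 0.12 (adjusted p = 0.0134) with overlapping windows and an intensity under 50 on each of the 8 arrays. Klf9, an early glucocorticoid-induced factor, had 0.38 ± 0.08 (adjusted p = 0.0164), and its call was lost without the SETD5 virus 48 h array (adjusted p = 0.0609). Of 14 immediate early genes 2 rose (14.3%) and 1 fell (7.14%), with a median of -0.10. These shares were near the 13.5% and 8.9% of all tested genes. Egr1 read 285, 163, 529.6 and 991 in the empty virus line and 306, 234, 542 and 1184 in the SETD5 line, and although it rose 3.03-fold (1.60 ± 0.30, adjusted p = 0.00829) it stayed under its level at 0 h, 3368.5 and 3389. Jun rose 1.66-fold (0.73 ± 0.13, adjusted p = 0.00792), and the nuclear orphan receptor gene Nr4a2, which the cyclic AMP list also holds, fell 1.92-fold (-0.94 ± 0.15, adjusted p = 0.00448).

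**Figure D3:**
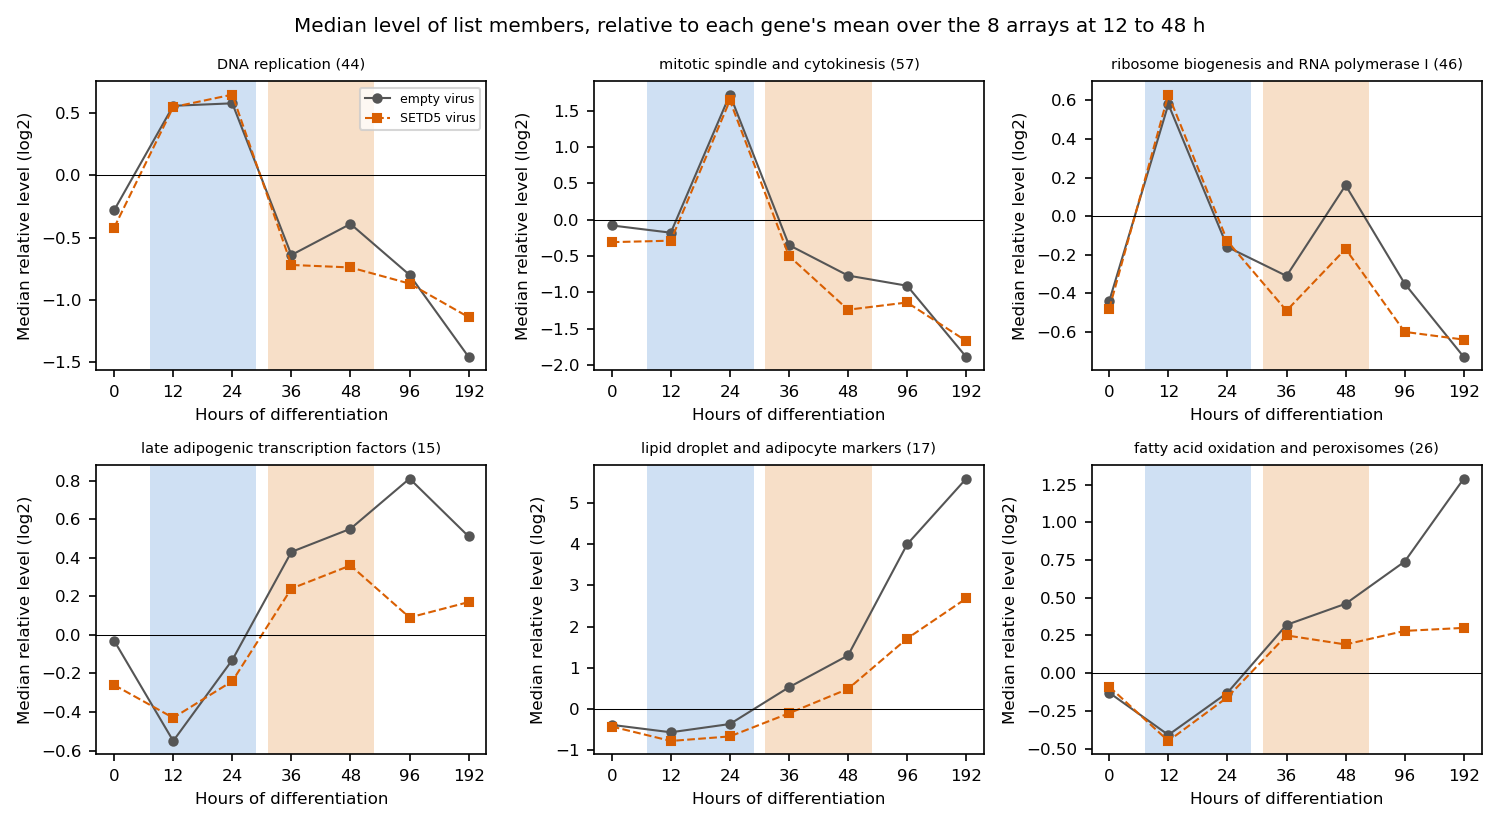
Median over list members of the log2 level (y), relative to each gene's mean over the 8 arrays at 12 to 48 h, at the 7 hours (x, spaced evenly), for 6 gene lists, as grey circles for the empty virus and orange squares for the SETD5 virus. The replication list lies between 0.55 and 0.65 at the earlier hours and between -0.74 and -0.39 at the later ones, whereas the mitotic list has 1.72 and 1.64 at 24 h but -0.18 and -0.29 at 12 h.

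Genes that mark fat cells rose from low levels. Of 17 tested genes of the lipid droplet and of mature fat cells 10 rose (58.8%) and 1 fell (5.88%), with a median of 1.41. The shares over all tested genes were 13.5% and 8.9%. The summed intensity of the 21 members with a probe set went from between 742 and 1612 on the earlier arrays to between 2873 and 9929.5 on the later ones. Of the 21, 8 stayed under 50 on all later arrays, among them the genes of the hormone leptin (Lep), the glucose transporter GLUT4 (Slc2a4) and the glycerol channel Aqp7. On the earlier arrays 16 of the 21 were under 50 throughout. The intensity filter counted all 14 arrays, so a member of this or any list could be tested through hours outside the comparison. Adig, Slc2a4, Mrap and Gpd1 were tested though under 50 in both windows, and Lep, Aqp7, Cidea and Apoe were not. The share and median of this list therefore lean towards genes high at later hours. The member that fell was Bscl2, which encodes the droplet assembly protein seipin (-0.46 ± 0.10, adjusted p = 0.0156). Fabp4, a cytosolic fatty acid carrier and the largest rise of all, read 19.6, 36.3, 809 and 4436 in the empty virus line and 16.2, 11.4, 220.0 and 1268 in the SETD5 line. Each later value exceeded every earlier one, the rise was 28.7-fold (4.84 ± 0.65, adjusted p = 0.00247), and the gene's other probe sets had 3.37 ± 0.56 (adjusted p = 0.00558), 0.82 ± 0.25 (adjusted p = 0.0484) and 0.63 ± 0.32 (adjusted p = 0.193, not called). Car3, a carbonic anhydrase abundant in fat, read 5.8, 21.8, 140.5 and 362 in the empty virus line and 4.4, 11.9, 76.5 and 139 in the SETD5 line, with no earlier array above 22 (6.52-fold, 2.71 ± 0.34, adjusted p = 0.00178), while its other probe set rose by less (1.00 ± 0.16, adjusted p = 0.00534). Angptl4, a secreted inhibitor of lipoprotein lipase, read 208, 632, 1653 and 1774 in the empty virus line and 124, 315, 1308 and 1327 in the SETD5 line, and the later arrays were all higher (5.3-fold, 2.41 ± 0.36, adjusted p = 0.00366). Adipoq, the gene of the hormone adiponectin, read 1.9, 3.7, 50 and 378 in the empty virus line and 4.5, 2.0, 7.4 and 56.9 in the SETD5 line. The only values of 50 or more were those of both lines at 48 h and of the empty virus at 36 h (2.10 ± 0.64, adjusted p = 0.0485). The Adipoq call was lost without any 1 array other than the SETD5 virus 36 h one (adjusted p between 0.052 and 0.13) and with an offset of 64, no intensity filter or no virus block (adjusted p up to 0.0998). Cd36, a fatty acid transporter, read 2.4, 1.6, 11.8 and 117 in the empty virus line and 4.7, 0.4, 6.3 and 36.2 in the SETD5 line and was not called (1.32 ± 0.48, adjusted p = 0.0841), although the windows did not overlap.

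In the lists of fatty acid uptake, synthesis and release all called members rose. Of 13 tested genes of uptake 6 rose (46.2%), of 25 in the list for making fatty acids and triglycerides 9 rose (36.0%) and of 8 genes of lipolysis 6 rose (75.0%). Over all tested genes the share was 13.5%. A negative difference that was not called was found in 4 genes of uptake, 9 of synthesis and 1 of lipolysis. The synthesis list also holds the glutathione transferase gene Mgst1, and none of the 3 lists held a gene that fell. Lpl, lipoprotein lipase, read 1587, 1123, 3806 and 5379 in the empty virus line and 1881, 1334, 3599.5 and 3997 in the SETD5 line, and all later values were above all earlier ones (2.83-fold, 1.5 ± 0.19, adjusted p = 0.00189). Cavin2, a coat protein of caveolae, rose 3.46-fold (1.79 ± 0.30, adjusted p = 0.00587), and Vldlr 2.26-fold (1.18 ± 0.22, adjusted p = 0.00813). Fabp5, another carrier, read 614, 701, 2556 and 6354 in the empty virus line and 893, 765, 1095 and 2764 in the SETD5 line, with a later range that reached from 1095 to 6354. It was called (3.54-fold, 1.83 ± 0.43, adjusted p = 0.0203), and the call was lost without the empty virus 12 h or SETD5 virus 48 h array (adjusted p = 0.0501 and 0.0667). Gpat3, the acyltransferase of the first step of triglyceride synthesis, read 8.5, 8.8, 96.9 and 529 in the empty virus line and 11.2, 5.6, 31.0 and 119.9 in the SETD5 line. The SETD5 virus array of 36 h, at 31.0, was the lowest later value (5.76-fold, 2.53 ± 0.56, adjusted p = 0.0164), and the call was lost without the SETD5 virus 48 h array (adjusted p = 0.0581). Pcx, pyruvate carboxylase, rose 2.85-fold (1.51 ± 0.31, adjusted p = 0.0123), and Mgst1, a microsomal glutathione transferase, 2.64-fold (1.4 ± 0.29, adjusted p = 0.0136). Pnpla2, the main triglyceride lipase, read 23.9, 26.8, 89.4 and 158 in the empty virus line and 27.1, 32.1, 67.6 and 84.9 in the SETD5 line, all under 33 earlier and all over 67 later (2.57-fold, 1.36 ± 0.20, adjusted p = 0.00346).

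Other members of the lipolysis list rose as well. Lipe, hormone-sensitive lipase, had 1.36 ± 0.26 (adjusted p = 0.00928) with no overlap between windows. Abhd5, the coactivator of Pnpla2, had 0.98 ± 0.12 (adjusted p = 0.00169), again with no overlap. Ces1f, a carboxylesterase, had 1.15 ± 0.20 (adjusted p = 0.00596) with overlapping windows and intensities of 4.9 to 23.8 on the earlier arrays. Its difference ranged from 0.50 to 1.80 over other settings. In contrast, of 19 tested genes of cholesterol synthesis and uptake 5 fell (26.3%) and 1 rose (5.26%), with a median of -0.14. The shares over all tested genes were 8.9% and 13.5%. Idi1, the isopentenyl isomerase, read 684, 574, 442 and 379.7 in the empty virus line and 743, 626, 431 and 380.5 in the SETD5 line, and both lines fell alike (1.58-fold, -0.66 ± 0.11, adjusted p = 0.00558). Sqle, squalene epoxidase, had -0.56 ± 0.13 (adjusted p = 0.019), and its call was lost without any 1 array other than the empty virus 12 h, empty virus 24 h, SETD5 virus 24 h and SETD5 virus 36 h ones (adjusted p between 0.0509 and 0.059). Ebp, a sterol isomerase, had -0.52 ± 0.11 (adjusted p = 0.0162), and its call was lost without the SETD5 virus 48 h array (adjusted p = 0.0549). Sc5d, a sterol desaturase, had -0.42 ± 0.10 (adjusted p = 0.0194), and its call was lost without any 1 array other than the empty virus 24 h, SETD5 virus 24 h, empty virus 36 h and SETD5 virus 36 h ones (adjusted p between 0.0512 and 0.0676). Another probe set of Sc5d had -0.13 and was not called. Fdps, farnesyl diphosphate synthase, had -0.38 ± 0.11 (adjusted p = 0.0429). The Fdps call was lost without any 1 array other than the SETD5 virus 36 h one (adjusted p between 0.061 and 0.123) and with no intensity filter (adjusted p = 0.0654). Dhcr7, the enzyme of the last step to cholesterol, was the member that rose, with 0.70 ± 0.16 (adjusted p = 0.0169), and its call was lost without the SETD5 virus 36 h or SETD5 virus 48 h array (adjusted p = 0.0536 and 0.0605).

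Fatty acid oxidation and peroxisomes stood apart from the other mitochondrial lists in the counts. Of 26 tested members 16 rose (61.5%, all tested genes 13.5%) and none fell. All 26 had a positive difference with a median of 0.55. Without 1 array 10 to 16 rose, the lowest count being that without the empty virus array of 48 h. Cat, the peroxisomal catalase, read 203, 305, 1061 and 1247 in the empty virus line and 254, 368, 869 and 1158 in the SETD5 line, and no later array was near an earlier one (3.73-fold, 1.90 ± 0.19, adjusted p = 0.000943). Pex11a, a factor of peroxisome division, read 44.6, 51.3, 174 and 351 in the empty virus line and 47.8, 52.0, 127 and 188 in the SETD5 line, with the highest value in the empty virus line at 48 h (3.28-fold, 1.71 ± 0.24, adjusted p = 0.00265). Acadm, the medium-chain dehydrogenase, rose 2.18-fold (1.13 ± 0.19, adjusted p = 0.0055), and Cpt1a, which commits fatty acids to the mitochondrion, 1.97-fold (0.98 ± 0.18, adjusted p = 0.0082). Of 23 genes of pyruvate dehydrogenase and the citric acid cycle 3 rose (13.0%, all tested genes 13.5%). They were Pcx, Idh1, the cytosolic isocitrate dehydrogenase (2.71-fold, 1.44 ± 0.22, adjusted p = 0.00382), and Idh3b, a subunit of the mitochondrial one (0.44 ± 0.09, adjusted p = 0.00946).

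Of 53 genes of oxidative phosphorylation 3 rose and 2 fell with a median of 0.03, and the shares called, 5.66% and 3.77%, were under those of all tested genes. Ndufa5, a subunit of complex I, had -0.42 ± 0.09 (adjusted p = 0.0164), and its call was lost without the empty virus 36 h or SETD5 virus 48 h array (adjusted p = 0.0582 and 0.0607). Uqcrq, of complex III, had -0.38 ± 0.11 (adjusted p = 0.0485). The Uqcrq call was lost without any 1 array other than the empty virus 24 h and empty virus 48 h ones (adjusted p between 0.0892 and 0.138) and with an offset of 4 or no intensity filter (adjusted p up to 0.0745). Ndufa6, also of complex I, had 0.49 ± 0.14 (adjusted p = 0.0372). The Ndufa6 call was lost without any 1 array other than the empty virus 24 h and SETD5 virus 24 h ones (adjusted p between 0.0666 and 0.101) and with no intensity filter (adjusted p = 0.0603). Uqcrh, of complex III, had 0.36 ± 0.11 (adjusted p = 0.0465). The Uqcrh call was lost without any 1 array other than the empty virus 36 h one (adjusted p between 0.0674 and 0.124) and with quantile normalization, an offset of 4 or no intensity filter (adjusted p up to 0.0787). Cox4i1, of complex IV, had 0.34 ± 0.10 (adjusted p = 0.0439). The Cox4i1 call was lost without any 1 array other than the SETD5 virus 24 h one (adjusted p between 0.0604 and 0.115) and with quantile normalization, an offset of 4 or no intensity filter (adjusted p up to 0.0896). Among 17 genes of glycolysis and the pentose phosphate pathway 2 rose (11.8%) and 1 fell (5.88%). Both shares were under those of all tested genes (13.5% and 8.9%). The one that fell was Pkm, pyruvate kinase (1.76-fold, -0.82 ± 0.13, adjusted p = 0.00395). Aldoa, an aldolase, had 0.53 ± 0.15 (adjusted p = 0.0361) with overlapping windows. The Aldoa call was lost without any 1 array other than the empty virus 24 h and SETD5 virus 24 h ones (adjusted p between 0.0623 and 0.1) and with no intensity filter (adjusted p = 0.0586). Pfkm, phosphofructokinase of the muscle type, had 0.43 ± 0.12 (adjusted p = 0.0369) with overlapping windows. The Pfkm call was lost without any 1 array other than the empty virus 24 h and SETD5 virus 24 h ones (adjusted p between 0.0627 and 0.105) and with no intensity filter or no virus block (adjusted p up to 0.0582).

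Targets of the hormones in the mixture were measured while the mixture was present in both windows. Of 19 tested glucocorticoid targets 11 rose (57.9%, all tested genes 13.5%) and none fell, with a median of 0.49. Sult1a1, a sulfotransferase, read 20.2, 11.2, 71.5 and 188 in the empty virus line and 32.1, 25.7, 116 and 207 in the SETD5 line, with no earlier array above 33 (4.04-fold, 2.01 ± 0.27, adjusted p = 0.00255). Ddit4 read 525, 972, 1685 and 1982 in the empty virus line and 524, 935, 1378 and 1292 in the SETD5 line, and the 12 h arrays were the lowest (2.18-fold, 1.12 ± 0.24, adjusted p = 0.0137). In the cyclic AMP list 4 of 14 tested members rose (28.6%, all tested genes 13.5%) and 2 fell (14.3%, all tested genes 8.9%). Pde4d, a cyclic AMP phosphodiesterase, rose 1.8-fold (0.85 ± 0.12, adjusted p = 0.00319). Gem, a small GTPase induced by cyclic AMP, had 1.81 ± 0.44 (adjusted p = 0.0228), and its call was lost without any 1 array other than the empty virus 12 h, empty virus 24 h, SETD5 virus 12 h and SETD5 virus 24 h ones (adjusted p between 0.0558 and 0.0727). Pde4b had 0.55 ± 0.13 (adjusted p = 0.0231), and its call was lost without any 1 array other than the empty virus 24 h and SETD5 virus 24 h ones (adjusted p between 0.0534 and 0.0771). Its other probe sets had 0.50 and 0.01 and were not called. Ppargc1a, a coactivator of mitochondrial genes, had 0.46 ± 0.13 (adjusted p = 0.0408) at intensities under 20. The Ppargc1a call was lost without any 1 array other than the empty virus 24 h and SETD5 virus 12 h ones (adjusted p between 0.0617 and 0.102) and with quantile normalization, an offset of 64, no intensity filter or an intensity trend with robust variances (adjusted p up to 0.13). Inhba, a chain of activin, fell 1.45-fold (-0.54 ± 0.11, adjusted p = 0.0117). A glucocorticoid receptor element was found in 2 of 26 promoters (7.69%) of the glucocorticoid list, in 0.0776% of those of risen genes in 0.121% of those of tested genes and in 0.222% of all promoters.

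Of 21 tested genes of insulin and IGF signalling 10 rose (47.6%, all tested genes 13.5%) and none fell. Igf1, the growth factor, read 87.5, 260.5, 782 and 849 in the empty virus line and 84.8, 298, 791 and 936 in the SETD5 line. The 12 h arrays were the lowest and both lines moved alike (4.92-fold, 2.30 ± 0.39, adjusted p = 0.00571). Foxo3, a forkhead factor held in check by insulin, rose 2.1-fold (1.07 ± 0.20, adjusted p = 0.00819), Igf2r, the receptor that clears IGF2, 1.92-fold (0.94 ± 0.12, adjusted p = 0.00229), and the binding protein gene Igfbp4 1.97-fold (0.98 ± 0.10, adjusted p = 0.00109), with 1.60 ± 0.16 on another probe set. Among 13 clock genes 4 rose (30.8%, all tested genes 13.5%) and 1 fell (7.69%, all tested genes 8.9%). Bhlhe40, a repressor of the clock, had 0.52 ± 0.10 (adjusted p = 0.00793) and was called in all 8 fits that left out 1 array. Dbp, a clock output factor, had 0.78 ± 0.18 (adjusted p = 0.0186), and its call was lost without the empty virus 36 h, empty virus 48 h or SETD5 virus 48 h array (adjusted p = 0.0594, 0.0572 and 0.0642). Tef, of the same family, had 0.60 ± 0.15 (adjusted p = 0.0228), and its call was lost without any 1 array other than the empty virus 12 h, empty virus 24 h, SETD5 virus 12 h and SETD5 virus 24 h ones (adjusted p between 0.0516 and 0.0692). Another probe set of Tef had 0.27 and was not called. The nuclear receptor gene Rora had 0.49 ± 0.12 (adjusted p = 0.0228) at intensities of 9.7 to 30.5. The Rora call was lost without the empty virus 36 h, SETD5 virus 36 h or SETD5 virus 48 h array (adjusted p = 0.0732, 0.0676 and 0.0682) and with an offset of 64 (adjusted p = 0.0697). Clock, a core activator of the clock, had -0.50 ± 0.13 (adjusted p = 0.0293), and its call was lost without any 1 array other than the SETD5 virus 24 h and SETD5 virus 36 h ones (adjusted p between 0.058 and 0.091). Its other probe sets had -0.21, -0.08 and -0.41 and were not called.

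Agtr2, the angiotensin receptor type 2, read 5.4, 114, 403 and 761 in the empty virus line and 12.1, 109, 489 and 1065 in the SETD5 line. Its values rose at each step in both lines (11.6-fold, 3.54 ± 0.64, adjusted p = 0.00764). Agt, the precursor of angiotensin, read 52.1, 86.9, 508 and 1081 in the empty virus line and 90.5, 95.3, 599 and 801 in the SETD5 line, with no earlier array above 96 (7.68-fold, 2.94 ± 0.25, adjusted p = 0.00054). Cxcl13, a chemokine that attracts B cells, read 29.8, 137, 587 and 1098 in the empty virus line and 25.3, 71.1, 489.8 and 903 in the SETD5 line, with all later arrays above all earlier ones (10.6-fold, 3.40 ± 0.42, adjusted p = 0.00178). Ang3, of the angiogenin family, read 79.8, 132, 374 and 1185 in the empty virus line and 58.8, 106, 186 and 863 in the SETD5 line, with a later range from 186 to 1185 (5.03-fold, 2.33 ± 0.50, adjusted p = 0.015). Saa3, an acute phase protein, read 41.3, 164, 530.3 and 469 in the empty virus line and 42.6, 91.0, 301 and 426 in the SETD5 line, all later values being higher (4.89-fold, 2.29 ± 0.35, adjusted p = 0.00378). Ephx2, soluble epoxide hydrolase, rose 5.17-fold (2.37 ± 0.33, adjusted p = 0.00275), and Cldn15, a claudin of tight junctions, 4.83-fold (2.27 ± 0.36, adjusted p = 0.00431). The largest fall of all was that of Ramp3, a partner of calcitonin-family receptors, which read 397, 126, 42.3 and 22.7 in the empty virus line and 414, 111, 47.2 and 41.6 in the SETD5 line. It was near 400 at 12 h in both lines and under 50 on all later arrays (4.44-fold, -2.15 ± 0.43, adjusted p = 0.0114).

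In the list of chemokines and inflammatory genes 6 of 18 tested members rose (33.3%) and 1 fell (5.56%). The shares over all tested genes were 13.5% and 8.9%. Next to Saa3, Hp, the gene of haptoglobin, rose 3.04-fold (1.60 ± 0.32, adjusted p = 0.0112), and Nfkbia, the inhibitor of NF-κB, 1.62-fold (0.70 ± 0.12, adjusted p = 0.00634). Lbp, which binds lipopolysaccharide, had 1.32 ± 0.35 (adjusted p = 0.0301) with overlapping windows. The Lbp call was lost without any 1 array other than the empty virus 24 h, SETD5 virus 12 h, SETD5 virus 24 h and empty virus 48 h ones (adjusted p between 0.0734 and 0.0885) and with no intensity filter or no virus block (adjusted p up to 0.096). The member that fell was Ptgs2, cyclooxygenase 2 (-0.43 ± 0.13, adjusted p = 0.0468), with overlapping windows and a call lost without any 1 array other than the SETD5 virus 24 h and SETD5 virus 48 h ones (adjusted p between 0.0722 and 0.117) and with an offset of 64, no intensity filter, an intensity trend with robust variances or no virus block (adjusted p up to 0.111). Of 15 interferon-response genes 1 rose and 1 fell (6.67% each), under the 13.5% and 8.9% of all tested genes. Irf1, a transcription factor, had 0.57 ± 0.16 (adjusted p = 0.0347). The Irf1 call was lost without any 1 array other than the empty virus 24 h and SETD5 virus 24 h ones (adjusted p between 0.0791 and 0.0898) and with no intensity filter (adjusted p = 0.057). Ifit2, an antiviral protein, had -0.78 ± 0.22 (adjusted p = 0.04) with overlapping windows. The Ifit2 call was lost without any 1 array other than the empty virus 12 h, SETD5 virus 12 h and empty virus 36 h ones (adjusted p between 0.0539 and 0.119) and with an offset of 64 or no intensity filter (adjusted p up to 0.0676).

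The promoter of Saa3 (chr7:46715627-46715926, - strand) is shown because Saa3 was among the largest rises and its promoter held a C/EBP motif, marked by capitals, 99 bases before the start.
Saa3: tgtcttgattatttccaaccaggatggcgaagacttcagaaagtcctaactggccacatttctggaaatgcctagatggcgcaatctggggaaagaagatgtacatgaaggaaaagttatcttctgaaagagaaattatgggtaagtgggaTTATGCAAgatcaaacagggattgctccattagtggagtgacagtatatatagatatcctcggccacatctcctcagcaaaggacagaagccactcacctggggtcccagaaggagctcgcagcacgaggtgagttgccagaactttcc
The motif, spelled TTGCGCAA, TTGCACAA or TTGCATAA, stood in 2.33% of the promoters of risen genes, 0.894% of those of fallen genes, 1.58% of those of tested genes and 1.91% of the table. AP-1 sites, spelled TGACTCA or TGAGTCA, stood in 5.05%, 2.94%, 3.50% and 5.20% in the same order, and TATA boxes, spelled TATAAA, in 9.01%, 7.02%, 6.97% and 13.6%. The cyclic AMP element, spelled TGACGTCA or TGACGCAA, stood in 2.02%, 4.85%, 4.05% and 2.26%. The CArG box stood in 1.48%, 1.15%, 1.28% and 1.63%, and the sterol element, spelled TCACCCCAC or TCACCCCAT, in 0.543%, 0.766%, 0.746% and 0.791%.

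Genes of the matrix and its remodelling were called in both directions, with shares of fallen members near that of all tested genes. Thbs2, thrombospondin 2, read 42.5, 97.0, 329 and 352 in the empty virus line and 59.2, 113, 317 and 464 in the SETD5 line. All later arrays were higher, yet they stayed under the 721 and 830.0 of 0 h (4.21-fold, 2.07 ± 0.25, adjusted p = 0.00157). Of its other probe sets 1 also rose and 1 did not pass the test (0.38 ± 0.37, adjusted p = 0.492). Adamts12, a metalloprotease, read 246, 258, 887 and 1557 in the empty virus line and 267, 308, 855 and 1885 in the SETD5 line, with the highest values at 48 h (4.35-fold, 2.12 ± 0.25, adjusted p = 0.00167). Timp1, an inhibitor of metalloproteases, read 1519.6, 1061, 406 and 334 in the empty virus line and 1465, 1049, 603 and 447 in the SETD5 line, all later arrays being lower (2.8-fold, -1.49 ± 0.19, adjusted p = 0.00195). Nid2, a basement membrane protein, rose 3.2-fold (1.68 ± 0.11, adjusted p = 0.000242). Plat, tissue plasminogen activator, rose 2.74-fold (1.46 ± 0.28, adjusted p = 0.00919), as did the metalloproteases Mmp2 (0.59 ± 0.11, adjusted p = 0.00724), Mmp14 (0.84 ± 0.15, adjusted p = 0.00714) and Mmp19 (0.98 ± 0.09, adjusted p = 0.000632). Timp3, another inhibitor, had -1.23 ± 0.32 (adjusted p = 0.0277) with overlapping windows, and its call was lost without any 1 array other than the empty virus 24 h and SETD5 virus 24 h ones (adjusted p between 0.0576 and 0.0791). Lum, a collagen-binding proteoglycan, had 2.25 ± 0.63 (adjusted p = 0.0365) with overlapping windows. The Lum call was lost without any 1 array other than the empty virus 12 h, empty virus 24 h and SETD5 virus 24 h ones (adjusted p between 0.0844 and 0.0977) and with no intensity filter (adjusted p = 0.0634). Fmod, of the same family, had -1.14 ± 0.32 (adjusted p = 0.0369). The Fmod call was lost without any 1 array other than the empty virus 24 h and SETD5 virus 24 h ones (adjusted p between 0.0557 and 0.112) and with an offset of 64 or no intensity filter (adjusted p up to 0.0638). Fbln5, an elastic fibre protein, had -1.13 ± 0.26 (adjusted p = 0.0192), and its call was lost without the SETD5 virus 48 h array (adjusted p = 0.0625). By list, 8 of 22 glycoproteins and proteoglycans rose (36.4%) and 2 fell (9.09%). Of 18 proteases and inhibitors 5 rose (27.8%) and 2 fell (11.1%). Of 26 collagens and collagen enzymes 6 rose (23.1%) and 2 fell (7.69%). Over all tested genes 13.5% rose and 8.9% fell.

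Among the collagen genes, the prolyl hydroxylase subunits P4ha2 and P4ha3 fell (-0.73 ± 0.11, adjusted p = 0.00418 and -0.78 ± 0.16, adjusted p = 0.0118). Col18a1, a basement membrane collagen, had 0.79 ± 0.20 (adjusted p = 0.0277), and its call was lost without the empty virus 48 h, SETD5 virus 12 h or SETD5 virus 24 h array (adjusted p = 0.0794, 0.067 and 0.0549). Col6a3, a chain of the microfibril collagen VI, had 0.53 ± 0.14 (adjusted p = 0.0347). The Col6a3 call was lost without any 1 array other than the empty virus 12 h and SETD5 virus 12 h ones (adjusted p between 0.0528 and 0.108) and with quantile normalization or no intensity filter (adjusted p up to 0.057). Pcolce2, an enhancer of procollagen cleavage and one of the largest falls, read 361, 592, 168 and 52.9 in the empty virus line and 351, 479.5, 169 and 64.2 in the SETD5 line, with the highest values at 24 h (3.86-fold, -1.95 ± 0.36, adjusted p = 0.00853). Ccn5, a matricellular protein of the WNT pathway, read 657, 286, 78.4 and 71.3 in the empty virus line and 429, 239, 94.3 and 82.9 in the SETD5 line, and the later arrays were all lower (4-fold, -2.0 ± 0.28, adjusted p = 0.00289). In the actin list 5 of 25 tested members fell (20.0%, all tested genes 8.9%) and 2 rose (8.0%, all tested genes 13.5%). Tagln2, a transgelin, read 1029.9, 1161, 534 and 450.3 in the empty virus line and 1294, 1122, 543 and 545 in the SETD5 line, and no later array came near an earlier one (2.19-fold, -1.13 ± 0.10, adjusted p = 0.000578), while another probe set fell by 0.37 (adjusted p = 0.04). Itga5, the fibronectin receptor subunit, fell 1.93-fold (-0.95 ± 0.18, adjusted p = 0.00885). Actn1, an actin cross-linker, had -0.75 ± 0.19 (adjusted p = 0.0273), and its call was lost without any 1 array other than the empty virus 24 h, SETD5 virus 24 h and SETD5 virus 36 h ones (adjusted p between 0.0504 and 0.0841). Tpm4, a tropomyosin, had -0.46 ± 0.12 (adjusted p = 0.0267), and its call was lost without any 1 array other than the empty virus 24 h, SETD5 virus 24 h and SETD5 virus 36 h ones (adjusted p between 0.0599 and 0.0723). Myh10, a non-muscle myosin, had -0.40 ± 0.10 (adjusted p = 0.0289), and its call was lost without any 1 array other than the empty virus 12 h and SETD5 virus 12 h ones (adjusted p between 0.0611 and 0.0864). The members that rose were the adhesion genes Lpp (0.37 ± 0.08, adjusted p = 0.0143, with -0.39 and -0.11 on 2 other probe sets that were not called) and Vcl (0.38 ± 0.10, adjusted p = 0.0257), the latter with a call lost without any 1 array other than the empty virus 24 h, SETD5 virus 24 h and empty virus 48 h ones (adjusted p between 0.0508 and 0.0813). Of the other probe sets of Lpp, 2 had a negative difference that was not called.

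Preadipocyte and anti-adipogenic genes did not move as 1 group. Of 31 tested members 6 fell (19.4%, all tested genes 8.9%) and 5 rose (16.1%, all tested genes 13.5%), with a median of 0.08. Id2, an inhibitor of helix-loop-helix factors, read 519, 359.5, 157 and 68.5 in the empty virus line and 714, 520.2, 194 and 137 in the SETD5 line. It was highest at 12 h and lowest at 48 h in both lines (3.59-fold lower, -1.85 ± 0.24, adjusted p = 0.00223). Runx1 fell 1.9-fold (-0.93 ± 0.20, adjusted p = 0.0141), from intensities of 33.3 to 59.0 to intensities of 9.1 to 25.8. Pdgfrb, a receptor of fibroblasts and preadipocytes, rose 1.79-fold (0.84 ± 0.15, adjusted p = 0.00717), and was the 1 of 10 defining fibroblast genes that was called. Pdgfra, its homolog, read 835, 1552, 2168 and 2164 in the empty virus line and 923, 1627, 2707 and 2889.5 in the SETD5 line and was called (1.05 ± 0.23, adjusted p = 0.015), a call lost without the SETD5 virus 48 h array (adjusted p = 0.0542). Other probe sets of Pdgfra had 0.66 and 0.69 and were not called. The other members that rose were Ddit3 and 2 transcription factors, Sox4 (0.40 ± 0.12, adjusted p = 0.0415) and Zfp521 (0.51 ± 0.16, adjusted p = 0.0495). The call of Sox4 was lost without any 1 array other than the empty virus 24 h, SETD5 virus 24 h and empty virus 48 h ones (adjusted p between 0.0941 and 0.123) and with quantile normalization or no intensity filter (adjusted p up to 0.0966). That of Zfp521 was lost without any 1 array other than the empty virus 24 h, SETD5 virus 24 h and empty virus 48 h ones (adjusted p between 0.113 and 0.142) and with quantile normalization, a common median, an offset of 4, no intensity filter or no virus block (adjusted p up to 0.0797).

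Of 11 tested members of the SETD5, NCoR-HDAC3 and PAF1 complexes 2 rose (18.2%, all tested genes 13.5%), both subunits of NCoR complexes. Tbl1x had 0.47 ± 0.11 (adjusted p = 0.0228), and its call was lost without the empty virus 48 h, SETD5 virus 12 h or SETD5 virus 48 h array (adjusted p = 0.0569, 0.0588 and 0.0687). The other probe sets of Tbl1x had 0.20 and 0.08 and were not called. Tbl1xr1 had 0.35 ± 0.09 (adjusted p = 0.0278), and its call was lost without any 1 array other than the empty virus 24 h, SETD5 virus 24 h and SETD5 virus 48 h ones (adjusted p between 0.0609 and 0.081). On other probe sets Tbl1xr1 had 0.37, which was called, and 0.14, which was not. Hdac3 (0.00 ± 0.10, adjusted p = 0.979) and Rnf213, a ubiquitin ligase the study followed (0.23 ± 0.11, adjusted p = 0.169), were not called.

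**Figure D4:**
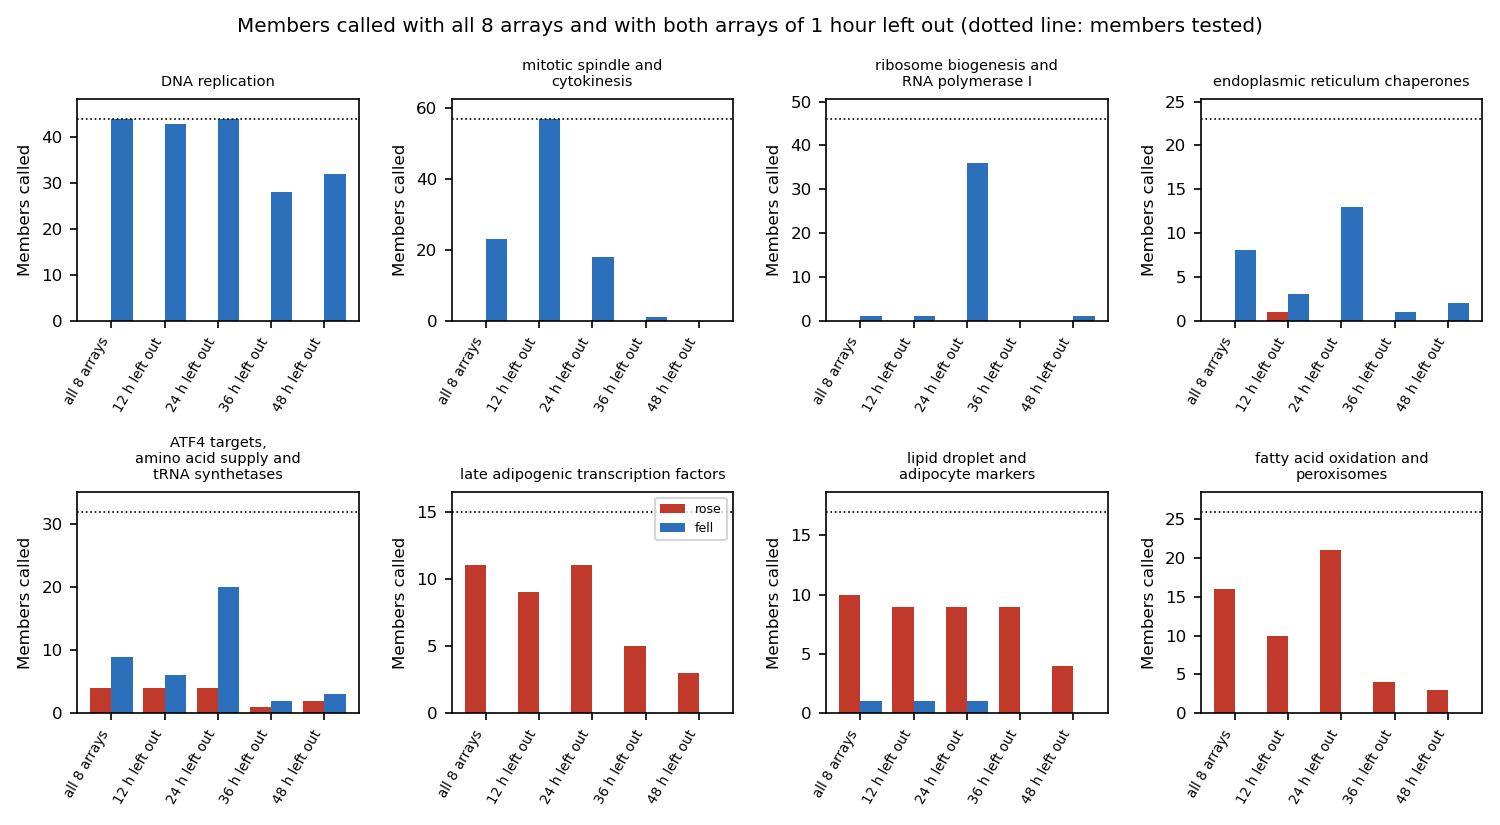
Members called as risen (red) or fallen (blue) (y, number of genes) in 8 gene lists with all 8 arrays and with both arrays of 1 hour left out (x), with the number tested as a dotted line. Mitotic genes go from 23 to 57 fallen without 12 h, and ribosome biogenesis genes from 1 to 36 without 24 h.

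The size of the change in the SETD5 line against that in the empty virus line was tested as an interaction of virus and window. No gene was called (0.0%) by limma, 94 (1.08%) had an unadjusted p under 0.05, and the smallest adjusted p was 1.0. A share of 1.08% is less than chance alone gives at that threshold. All 1173 risen and all 773 fallen genes had the same sign in both lines, as a call over both lines favours. The median change of risen genes was 0.61 in the empty virus line and 0.58 in the SETD5 line, and that of fallen genes -0.63 and -0.67. The 95% interval of the interaction had a median half-width of 0.61 on the log2 scale. This fit left hour out, so its spread held any change between the hours of a window that both lines shared. The width and the lack of calls describe this fit and not the smallest difference the arrays could show. For Fabp4 the SETD5 minus empty difference was -1.26 (95% interval -4.39 to 1.87), for Pparg -0.27 (95% interval -1.56 to 1.02), for Adipoq -2.0 (95% interval -4.75 to 0.75), for Fabp5 -1.53 (95% interval -3.25 to 0.19) and for Mcm5 -0.24 (95% interval -0.93 to 0.44). By list, the median change of the late transcription factors was 1.04 in the empty virus line and 0.72 in the SETD5 line, and that of the fat cell genes 1.55 and 1.00. For fatty acid and triglyceride synthesis it was 0.46 and 0.14. The remaining lists lay the other way or closer together, with 0.06 and 0.38 for the clock genes and -1.28 and -1.43 for DNA replication. Of 161 named genes 3 had an interval, not adjusted for their number, that excluded 0, all with a positive difference. They were Nme1 (1.88 (95% interval 1.05 to 2.72)), Runx1 (0.86 (95% interval 0.21 to 1.52)) and Dhcr7 (0.69 (95% interval 0.18 to 1.21)). Nme1 was named because the same interaction was called for it with hour as a block, so its interval adds no separate evidence. Unadjusted 95% intervals exclude 0 in some genes by chance. With hour as a block 2 genes were called, chosen here after their values were seen. Nme1, a nucleoside diphosphate kinase, had 1.88 ± 0.19 (adjusted p = 0.0445), and Retn, the hormone resistin, -1.46 ± 0.15 (adjusted p = 0.0445). With hour left out their standard errors were 0.35 and 1.29. Nme1 read 2928, 2402, 1696 and 2163 in the empty virus line and 793, 485, 1649.7 and 1716 in the SETD5 line, and the lines moved in opposite directions, while another probe set of the gene fell over both lines (-0.94 ± 0.12, adjusted p = 0.00234). Retn read 4.4, 9.2, 41.2 and 302 in the empty virus line and 1.1, 5.8, 3.0 and 75.8 in the SETD5 line, so that 1 empty and 1 SETD5 array, those of 48 h, were above 50.

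**Figure D5:**
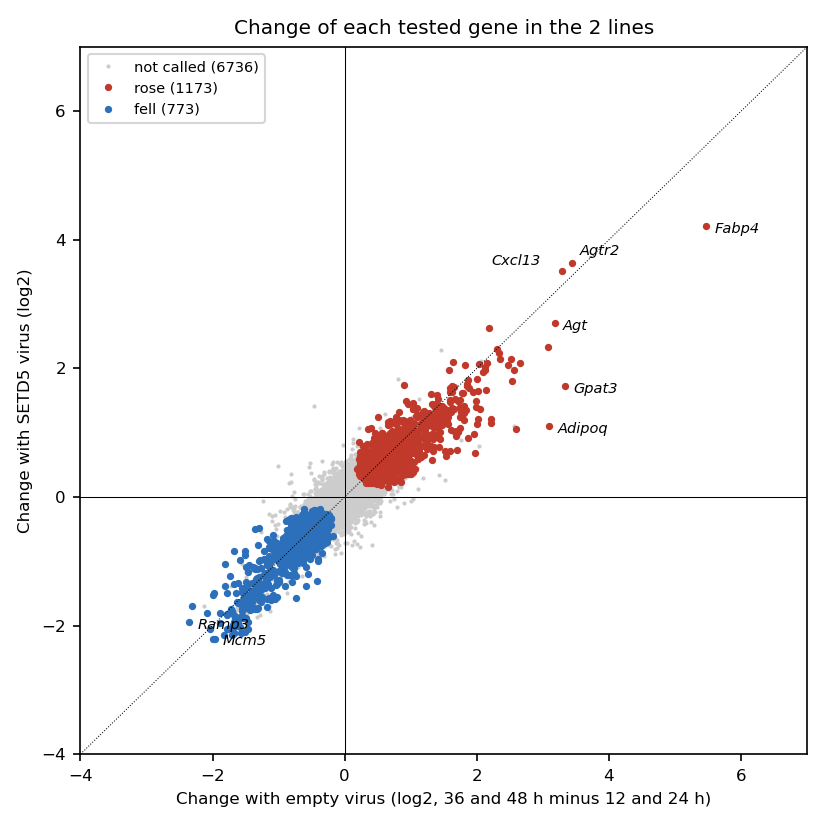
Change from 12 and 24 h to 36 and 48 h in the empty virus line (x, log2) and in the SETD5 line (y, log2) of the 8682 tested genes, 1 point per gene, in red for 1173 that rose, blue for 773 that fell and grey for the rest, with the dotted line where both changes are equal. Fabp4, Gpat3 and Adipoq lie to the right of the line, and no called gene changed sign between the lines.

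The level before the mixture and under insulin alone puts the change in a longer course. These values share arrays with the comparison and were not tested. Of the risen genes 887 (75.6%) had been lower at 12 and 24 h than at 0 h, against 53.6% of all tested genes, and of the fallen genes 671 (86.8%) had been higher, against 46.4% of all. The median of the risen genes was -0.43 and that of the fallen genes 0.53 relative to 0 h on the log2 scale. Risen genes were called in part for low values at 12 and 24 h, and fallen genes for high ones. The excess over all tested genes is therefore partly built in. From 36 and 48 h to 96 and 192 h, 53.7% of the risen genes were higher (all tested genes 49.2%) and 67.4% of the fallen genes lower (all tested genes 50.8%). The calls used the 36 and 48 h values too, so these shares also only describe the called genes. Among the 12 largest rises, those that were low again at 192 h in the empty virus line included Cxcl13, Ang3 and Saa3. In that line Cxcl13 was at 587 to 1098 in the later window and at 26.7 at 192 h. Ang3 was at 374 and 1185 and then 0.4, and Saa3 at 530 and 469 and then 31.2. Those that stayed high included Fabp4, which reached 9162 and 6297 at 192 h, and Car3, which reached 5751 and 1902. Mcm5 continued down to 68.1 and 90.0 at 192 h.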

How the data were processed

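RNA of 3T3-L1 cells carrying an empty or a SETD5-V5 retrovirus was measured by the authors at 7 hours of differentiation on Affymetrix Mouse Genome 430 2.0 arrays, read with a GeneChip Scanner 3000 and GeneChip Analysis Suite version 5.0. The deposited values were linear average-difference intensities per probe set, and in these the mean after trimming 2.0% at each end was 100 on every array. The scaling behind this and any filters were not given in the sources used here. The number of arrays limits the precision.

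Of 45100 probe sets, 34944 had 1 gene symbol, 932 several, 9160 none and 64 were controls. The probe set with the highest mean over the 14 arrays stood for its gene, and the 8682 of 18193 genes that reached 50 on 3 or more arrays were tested. On log2(intensity + 16), the 4 arrays of 36 and 48 h were compared with the 4 of 12 and 24 h in limma 3.58.1 (R 4.3.3), with virus as a block (5 residual and 3.25 prior degrees of freedom). The interaction of virus and window was fitted on the same arrays with hour left out. P-values were adjusted by Benjamini-Hochberg over all tested genes, 0.05 being the threshold, and errors are limma standard errors. Replicate numbers in a window only name virus and hour, and the block on virus is what pairs them.

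The contrast and 39 gene lists were chosen with earlier results of these data known. Of 1013 list entries 945 matched a gene and 815 were tested. Named by rule were the 12 largest rises and 12 largest falls with a mean of 100 or more in 1 window and no overlap, up to 4 called members of each list, and genes the study followed. Another 23 genes, the members behind counts of 5 or fewer and 2 genes of the interaction (Nme1 and Retn), fall outside the rule and were chosen after their values were seen. Alternatives covered scaling, offset (4 and 64), filter, probe sets, variance model, block, each virus alone, and each hour or array left out. Promoters were from RefSeq GRCm38.p6. The fits were run on simulated data with independent noise on each array. Those data hold no change between the hours of a window that both viruses share, so they do not check that part of the spread.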

Additional observations from a re-analysis of the deposited data

Results flagged for a closer look

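Within a window of 4 arrays, 1 array stood apart from the other 3 in 15 of 322 gene and window pairs (4.66%), where chance marks about 1 in 20. The gap to the nearest other array, divided by the range of the window on the log2 scale, was then above Dixon's 95% critical value. Agt read 52.1 with the empty virus at 12 h, the lowest value of its window, against 86.9 to 95.3 on the other arrays. Ephx2 read 24.8 with the SETD5 virus at 24 h, the highest value of its window, against 18.2 to 18.7 on the other arrays. Ces1f read 23.8 with the empty virus at 24 h, the highest value of its window, against 4.9 to 6.0 on the other arrays. Gem read 630.0 with the empty virus at 48 h, the lowest value of its window, against 799.6 to 834.8 on the other arrays. Cdc6 read 61.5 with the empty virus at 48 h, the highest value of its window, against 27.6 to 30.5 on the other arrays. Shmt2 read 87.5 with the empty virus at 48 h, the highest value of its window, against 63.2 to 66.1 on the other arrays. Sdf2l1 read 38.8 with the empty virus at 36 h, the lowest value of its window, against 69.5 to 71.3 on the other arrays. Ndufa6 read 1412.7 with the SETD5 virus at 48 h, the lowest value of its window, against 1627.7 to 1643.3 on the other arrays. Tagln2 read 450.3 with the empty virus at 48 h, the lowest value of its window, against 533.6 to 545.1 on the other arrays. Tef read 211.7 with the SETD5 virus at 48 h, the highest value of its window, against 193.6 to 195.2 on the other arrays. Psmd13 read 337.8 with the empty virus at 48 h, the highest value of its window, against 262.9 to 267.6 on the other arrays. Cebpb read 4083.4 with the empty virus at 36 h, the highest value of its window, against 3302.4 to 3381.8 on the other arrays. Cth read 652.6 with the empty virus at 36 h, the lowest value of its window, against 763.4 to 769.6 on the other arrays. Mmp2 read 1802.6 with the SETD5 virus at 12 h, the lowest value of its window, against 2042.8 to 2087.2 on the other arrays. Nme1 read 2163.1 with the empty virus at 48 h, the highest value of its window, against 1649.7 to 1716.1 on the other arrays. Of the 15, 6 concern the empty virus array of 48 h.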

How the results depend on the processing

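With 1173 risen and 773 fallen genes as the reference, quantile normalization gave 1127 and 781, a common median 1116 and 797, offsets of 4 and 64 gave 1140 and 755 and 1150 and 758, no filter 1008 and 662, a minimum of 100 gave 1059 and 685, an intensity trend with robust variances 1191 and 777, and a fit with no replicate block (virus left out) 1179 and 808. Every probe set tested on its own gave 1740 and 1206. Of the other probe sets of named genes, 78 had the same sign and were called. Another 37 had the same sign and were not called, and 4 had the opposite sign. All 14 arrays with hour as a factor gave 1769 and 1406. With both 24 h arrays left out 1893 and 1529 were called, with both 12 h arrays out 988 and 800, with both 36 h arrays out 275 and 188, and with both 48 h arrays out 173 and 197. Leaving out 1 array gave 603 to 1154 risen and 399 to 812 fallen genes. The empty virus alone and the SETD5 virus alone, with 2 arrays per window, gave 0 and 0 each by limma, with 1549 and 1686 genes at an unadjusted p under 0.05. The interaction gave 0 and 0, and 1 and 1 with hour as a block. Fewer arrays entered the fits that leave some out, and beyond this the cause was not tested.

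Of the 151 named genes called, none changed sign under these alternatives, and 57 lost the call without at least 1 array. By setting, the named calls lost were 151 with either virus alone, 109 without 48 h, 93 without 36 h, 30 without 12 h, 28 with no filter, 11 with all 14 arrays, 8 without 24 h, 7 with quantile normalization and with an offset of 64, 6 with an offset of 4 and with no replicate block, 4 with every probe set, 2 with an intensity trend and 1 with a common median. Among those not called, Anapc2 had -0.08 without 12 h and -0.04 to 0.11 without 1 array. Hdac3 had -0.01 with a common median, -0.04 with the SETD5 virus alone, -0.09 without 12 h, -0.02 without 48 h and -0.05 to 0.05 without 1 array. Nme1 had -0.47 with the empty virus alone, against 0.48. Low intensities limit Cebpa, Cd36, Adipoq, Retn, Zfp423, Ppargc1a, Rora, Ces1f and Runx1, whose values lay mostly under 50.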
